A study of Homo sapiens with 3 samples.

Results

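The RNA sites of MATR3 (matrin 3), a protein of the nucleus, were mapped by PAR-CLIP, in which a photoreactive uridine analogue is crosslinked to the bound protein and read out as T-to-C changes. The libraries came from untreated HEK293 cells of wild-type genotype, a long-established line derived from human kidney, and were made with an antibody against MATR3. There were 3 biological replicates in a single group and no control library. The clusters described here are those whose deposited annotation is nonsense_mediated_decay or retained_intron, called decay clusters and retained-intron clusters below. They were chosen by that annotation alone. Decay clusters numbered 366, 385 and 338 in replicates 1, 2 and 3, and retained-intron clusters 294, 302 and 274. Together they made 1959 of 388807 clusters, or 0.504% ± 0.016 of a replicate's clusters (SD, n = 3), and held 0.498% ± 0.041 of its reads.

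Nonsense-mediated decay degrades transcripts that carry a stop codon in a premature context. A retained-intron transcript keeps intronic sequence that coding transcripts of the gene splice out. Gene annotations give both as a type of a whole transcript, so the label of a cluster names an isoform and not the segment of it that is bound. MATR3 is known as a splicing regulator that binds pyrimidine-rich RNA inside introns, and AUCUU is a motif known for it, searched for below in its DNA form.

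The following sequences are examples of what recurred. Each is a site where clusters of 1 class from all 3 replicates chained together by overlaps of at least 1 nt, printed on the RNA strand from the deposited clusters (hg38), and capitals mark the bases that a cluster covered in all 3 replicates. The first lies in GPR135 (chr14:59453048-59453108, minus strand, intron 6 of isoform GPR135-202), the second in HNRNPUL2-BSCL2 (chr11:62710572-62710730, minus strand, intron 13 of HNRNPUL2-BSCL2-201), the third in SLC9A5 (chr16:67239560-67239662, plus strand, intron 1 of SLC9A5-204), the fourth in BRD9 (chr5:854891-854987, minus strand, intron 2 of BRD9-210) and the fifth in TPT1-AS1 (chr13:45363326-45363431, plus strand, intron 2 of TPT1-AS1-212).
GPR135, decay: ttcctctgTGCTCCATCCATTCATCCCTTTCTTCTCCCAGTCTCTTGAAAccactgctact
HNRNPUL2-BSCL2, decay: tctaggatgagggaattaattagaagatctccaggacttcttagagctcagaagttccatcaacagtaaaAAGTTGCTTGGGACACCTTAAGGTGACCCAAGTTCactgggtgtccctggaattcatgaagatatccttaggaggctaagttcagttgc
SLC9A5, retained intron: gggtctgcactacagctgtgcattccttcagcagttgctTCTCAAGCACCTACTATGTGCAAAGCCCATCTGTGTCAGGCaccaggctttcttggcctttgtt
BRD9, retained intron: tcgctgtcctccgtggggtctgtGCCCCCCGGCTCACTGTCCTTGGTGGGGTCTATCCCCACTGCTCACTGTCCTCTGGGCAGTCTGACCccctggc
TPT1-AS1, retained intron: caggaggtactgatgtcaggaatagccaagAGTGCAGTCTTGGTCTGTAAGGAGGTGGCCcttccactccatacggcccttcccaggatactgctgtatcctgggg

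The GPR135 site held 36, 10 and 23 reads in replicates 1, 2 and 3, and 77.0% of its bases were C or T. The HNRNPUL2-BSCL2 site held 24, 21 and 46 reads and was 45.9% C and T. The SLC9A5 site held 33, 23 and 40 reads and was 60.2% C and T. Replicate 2 was the lowest of the 3 at each of these sites. The BRD9 site held 35, 21 and 29 reads and was 66.0% C and T. It had the longest stretch covered in all replicates, 67 of its 97 bases. The TPT1-AS1 site held 20, 23 and 27 reads and was 49.1% C and T, so the recurring sites were not all pyrimidine-rich. None of the 5 contains ATCTT, but sites of all 3 replicates in SARNP and NHSL1 and another site in SLC9A5 do.

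Decay and retained-intron clusters lay mostly in introns of annotated isoforms of the type that their label names. The deposited classes were set against GENCODE release 44 on hg38, the build of the files. The release used by the authors is not given in the sources used here. An exon of a decay transcript was overlapped by 61, 59 and 48 decay clusters (15.4% ± 1.2; SD, n = 3). An exon of a retained-intron transcript was overlapped by 77, 88 and 81 retained-intron clusters (28.3% ± 1.8). Of these exonic clusters, 26, 22 and 20 decay and 44, 51 and 39 retained-intron clusters overlapped no exon of a coding transcript. The remainder also overlapped such an exon, so their label does not tell which transcript was bound. The exonic share was the higher for retained-intron clusters in every replicate, by 12.9 ± 3.0 percentage points (exact two-sided sign-flip test, n = 3, p = 0.25, adjusted p = 0.321). Here 0.25 is the smallest p-value that 3 replicates allow, so no comparison below could pass 0.05. That gap was 26.8 points with 1 value per gene and 25.3 without the 5 genes with most clusters of each class.

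Nearly all the others were inside the span of such a transcript, 94.9% ± 0.65 of decay clusters and 96.5% ± 1.5 of retained-intron clusters when the exonic ones are counted too. An intron kept whole in a retained-intron transcript was overlapped by 12, 6 and 6 retained-intron clusters, or 4.08%, 1.99% and 2.19%. Clusters in such introns could also be annotated as intron, since coding transcripts of the gene may splice them out. The count thus follows the deposited labels and is no result about binding. The exonic decay clusters lay on untranslated bases of a decay transcript in 61, 54 and 46 cases and on its coding bases in 0, 5 and 3. The introns that held the rest were long. Their median length over clusters was 20544, 18420 and 21556 nt for decay and 25512, 23868 and 25512 nt for retained-intron clusters. Median distance to the nearer end of such an intron was 3665, 3713 and 4947 nt for decay clusters and 6292, 5489 and 5317 nt for retained-intron clusters. At most 2.91% of the clusters in such introns, per class and replicate, were within 100 nt of an end. Median distance to the nearest splice site of any transcript was 2019 ± 235 nt for decay and 2409 ± 302 nt for retained-intron clusters. It was 1888 ± 106 nt for intron and 2407 ± 132 nt for processed_transcript clusters. Lying far from splice sites was thus not particular to the 2 classes. No retained-intron cluster crossed an exon boundary of a coding transcript, which allows a share of up to 1.02%, 0.993% and 1.09% in the 3 replicates. Of decay clusters 0.635% ± 0.38 did. Clusters at exons of coding transcripts could be annotated as coding or 3′ UTR instead. The shares at exon boundaries and the counts on coding bases thus follow the deposited labels as well.

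**Figure D1:**
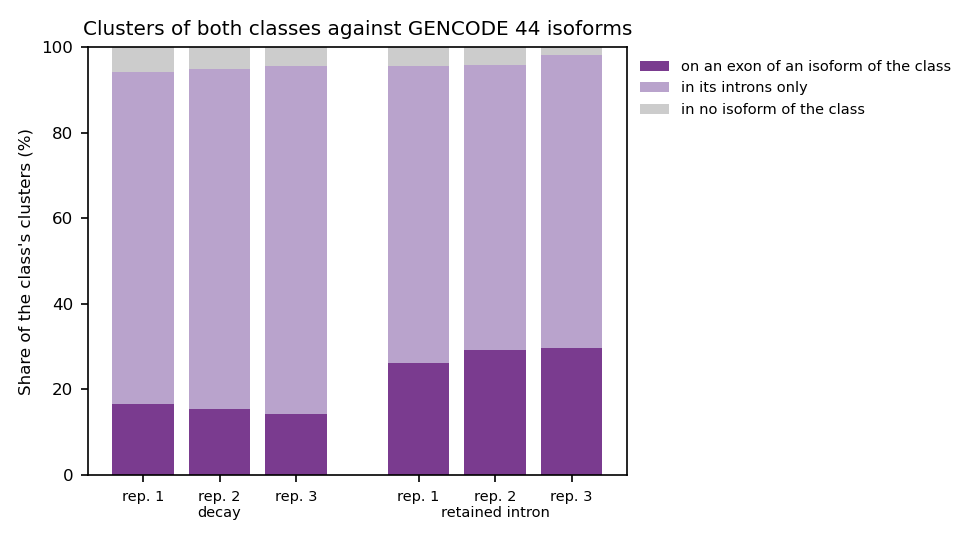
Stacked bars give, for each class and replicate, the share of clusters (%) that overlap an exon of a GENCODE 44 isoform of the class, lie only in introns of such isoforms, or lie in none. The exonic share is 15.4% on average for decay and 28.3% for retained-intron clusters, and introns hold most clusters in all 6 bars.

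Most of these clusters lay outside protein-coding transcripts. A share of 37.7% ± 0.24 of clusters of both classes were inside a coding transcript on their strand, against 99.8% ± 0.014 of clusters annotated as intron by the authors. Clusters annotated as processed_transcript had a lower share, 24.6% ± 1.7, so this placement is not particular to the 2 classes. All these classes come from the deposited annotation that chose the members, so the shares are a description. Of the clusters outside, 65.0% ± 1.4 of decay clusters began within 10 kb after the end of a coding transcript. The share was 36.6% ± 4.8 for retained-intron clusters and 44.4% ± 1.3 for clusters to which the authors gave no annotation. The ranges over replicates of these 3 sets did not overlap. Isoforms tagged as read-through, which join 2 neighbouring genes, held 21.0% ± 1.9 of decay clusters and 4.34% ± 1.9 of retained-intron clusters. These placement values were compared after the data had been seen and were not tested further.

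In base composition, retained-intron clusters were the richer in G and C. GC content was 48.6%, 51.8% and 48.1% in decay clusters and 52.1%, 55.4% and 53.0% in retained-intron clusters. The retained-intron value was higher in each replicate, although the 2 ranges over replicates nearly met (51.8% against 52.1%). Replicate 2 was highest in both classes. The difference within replicates was 3.98 ± 0.80 points (exact sign-flip test, n = 3, p = 0.25, adjusted p = 0.321). It was 2.38 with 1 value per gene and 2.37 without the 5 genes with most clusters of each class, in the same direction. Intron clusters had a GC content of 47.2% ± 0.72, coding clusters 58.0% ± 0.57 and 3′ UTR clusters 49.4% ± 0.59. Decay clusters thus lay 2.32 ± 1.29 points and retained-intron clusters 6.30 ± 0.99 points above introns, higher in 3 of 3 replicates each. Exonic members were 0.92 ± 0.62 points above the other members.

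T content went the other way. It was 29.8% ± 1.6 in decay, 28.1% ± 2.0 in retained-intron and 31.9% ± 0.88 in intron clusters. The retained-intron value was 1.73 ± 0.67 points below the decay value within replicates, lower in 3 of 3 (exact sign-flip test, n = 3, p = 0.25, adjusted p = 0.321).

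The ATCTT motif was sparse. It was searched on the RNA strand only, at every start position, so that cluster length does not enter. Decay clusters held 39, 34 and 25 occurrences, and retained-intron clusters 16, 14 and 18. Per 1000 positions this gave 2.46, 1.92 and 1.79 in decay clusters and 1.26, 0.929 and 1.60 in retained-intron clusters. Every retained-intron value was below every decay value, with a within-replicate difference of -0.79 ± 0.53 (exact sign-flip test, n = 3, p = 0.25, adjusted p = 0.321), which was -0.48 ± 1.3 with 1 value per gene. Intron clusters had 2.38 ± 0.17 per 1000 positions. Retained-intron clusters were 1.12 ± 0.19 below them in 3 of 3 replicates. Coding clusters had 1.29 ± 0.13, close to the retained-intron value, and 3′ UTR clusters 1.84 ± 0.22, so a low rate is not particular to retained-intron clusters. The decay difference of -0.33 ± 0.36 was within its spread, and was -0.0043 in replicate 1. T content moved with the motif, and its part in the motif difference was not tested.

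The next sequences are the clusters with most reads among those holding ATCTT (capitals) in GPR135, TMX2-CTNND1 and SLC9A5. They lie at chr14:59451302-59451461 (minus strand, replicate 2, 34 reads), chr11:57745602-57745758 (plus strand, replicate 1, 59 reads) and chr16:67240867-67240976 (plus strand, replicate 2, 25 reads) of hg38, each in an intron of the labelled isoform. A match describes these letters and is no measured binding site.
GPR135, decay: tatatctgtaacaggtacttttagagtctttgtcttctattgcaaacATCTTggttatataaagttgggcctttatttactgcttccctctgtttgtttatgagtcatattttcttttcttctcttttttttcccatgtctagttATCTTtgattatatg
TMX2-CTNND1, decay: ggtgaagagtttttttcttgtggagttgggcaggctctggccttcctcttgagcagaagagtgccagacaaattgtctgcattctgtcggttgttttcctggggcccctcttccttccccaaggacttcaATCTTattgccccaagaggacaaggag
SLC9A5, retained intron: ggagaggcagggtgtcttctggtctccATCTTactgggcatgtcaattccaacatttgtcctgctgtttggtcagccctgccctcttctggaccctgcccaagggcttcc

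The GPR135 cluster holds ATCTT 2 times in 160 nt. The SLC9A5 cluster overlapped clusters of both other replicates, while the GPR135 and TMX2-CTNND1 clusters overlapped none.

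Conversion per T, the share of T positions in reads that were read as C, was 11.3%, 11.6% and 11.4% in decay clusters. It was 11.6%, 12.8% and 11.9% in retained-intron clusters and 10.9% ± 0.38 in intron clusters. The retained-intron value was higher than the decay value of the same replicate in 3 of 3, by 0.67 ± 0.43 points (exact sign-flip test, n = 3, p = 0.25, adjusted p = 0.321). The difference was 0.44 without replicate 2 and 0.38 without the 5 genes with most clusters of each class. Both classes together lay 0.82 ± 0.33 points above introns. T content ran the opposite way over these 3 classes, and its part in the conversion difference was not tested. Conversion was 11.7% ± 0.27 in coding and 10.4% ± 0.35 in 3′ UTR clusters. Reads with T-to-C made up 86.7% ± 0.57 in decay and 86.8% ± 1.9 in retained-intron clusters, with differences of both signs over the replicates. Median reads per cluster were 9, 9 and 8 in decay and 9, 9 and 10 in retained-intron clusters, and median lengths 39, 40 and 37 nt against 39, 41 and 36.5 nt. Neither median differed beyond its spread between the 2 classes. Mean reads per cluster were 11.2, 11.2 and 11.7 in decay and 11.8, 12.6 and 13.3 in retained-intron clusters, higher in the latter in 3 of 3 replicates by 1.18 ± 0.56.

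**Figure D2:**
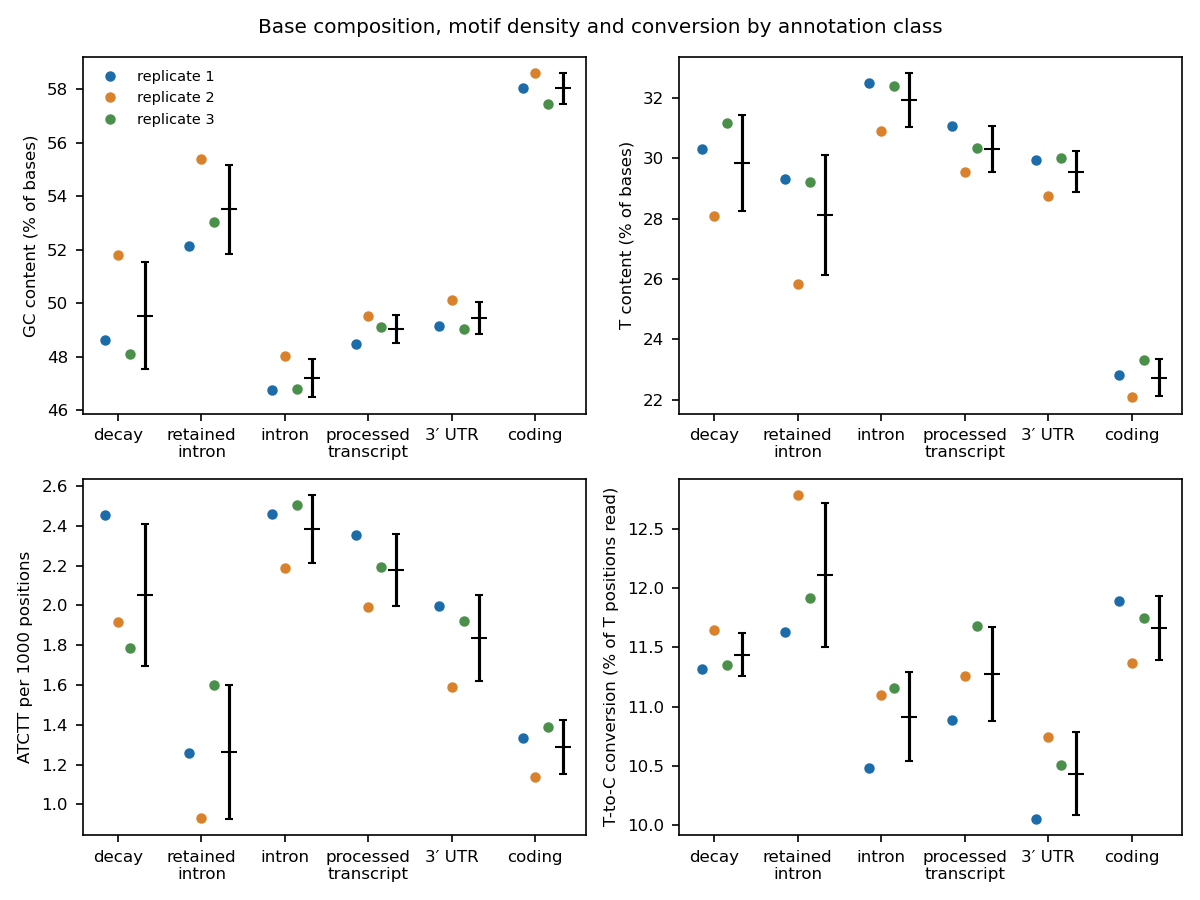
Points give the 3 replicates of each annotation class for GC content (% of bases), T content (% of bases), ATCTT per 1000 start positions and T-to-C conversion (% of T positions read), and bars give mean and SD. No axis starts at 0. Retained-intron clusters lie above decay clusters in GC content and conversion and below them in ATCTT in each replicate.

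Decay clusters fell in 156 genes, 72 of them in all 3 replicates, 31 in 2 and 53 in 1. Retained-intron clusters fell in 124 genes, 37 of them in all 3 replicates, 22 in 2 and 65 in 1. Both labels were carried by 2 genes, or 1.28% of the decay genes and 1.61% of the retained-intron genes. Of all 13557 genes with a cluster of any class, 1.15% had a decay cluster and 0.915% a retained-intron cluster, so the overlap was near the share over all genes. The 278 genes together were 2.05% of those 13557, and the genes with a class in all 3 replicates were 109, or 0.804%. The 10 leading genes held 36.0% ± 4.3 of decay reads and 56.7% ± 0.68 of retained-intron reads, so a few genes weigh more in the retained-intron class. Of the genes with a class in all 3 replicates, 24 of 72 decay genes and 18 of 37 retained-intron genes had no cluster annotated as intron. These counts follow the deposited labels. Of intron clusters, 99.8% ± 0.014 were inside a coding transcript, so a non-coding gene could hardly carry that label. PAX8-AS1, for example, had 21, 25 and 19 clusters of any class and none annotated as intron. The counts are therefore no result about binding. No cluster on an exon of the class was found in 44 of the 72 and 13 of the 37, and every cluster was on one in 4 and 15.

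**Figure D3:**
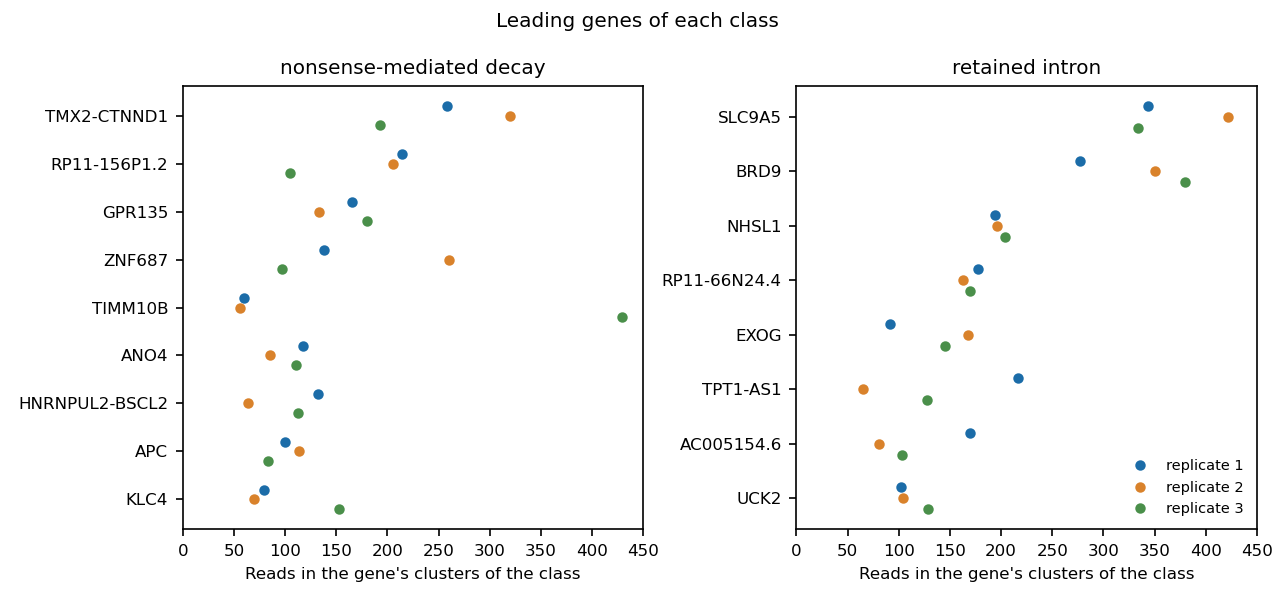
Points give the reads in each gene's clusters of the class in replicates 1 to 3 for named genes among the 10 that lead the class by geometric mean of their share of its reads. Of the retained-intron genes drawn, SLC9A5 and BRD9 have the most reads in every replicate, and TIMM10B has 429 reads in replicate 3 against 60 and 56.

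Among decay genes the read-through isoforms stood at the top. TMX2-CTNND1, which joins a thioredoxin-related membrane protein gene to the p120 catenin gene, had 11, 6 and 9 clusters with 258, 320 and 193 reads (6.19% ± 1.3 of decay reads). Of its 26 clusters, 25 lay in the 48400-nt intron 2 of the isoform, 139 to 4417 nt after the end of SELENOH (selenoprotein H), and none was in a coding transcript. A single cluster of replicate 2 held 210 of its 320 reads. TIMM10B, a mitochondrial inner membrane import gene, had 60, 56 and 429 reads in 4, 5 and 11 clusters, so replicate 3 stands far above the others. All 20 lay in an intron of a read-through isoform, 49 to 12481 nt after the end of its own coding transcripts. HNRNPUL2-BSCL2 joins an hnRNP U-like protein gene to the seipin gene. It had 132, 64 and 113 reads, and 11 of its 16 clusters lay 121 to 2563 nt after the end of HNRNPUL2.

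Clusters also followed a gene's own coding end without a read-through tag. GPR135, an orphan G-protein-coupled receptor, had 165, 133 and 180 reads in 11, 10 and 15 clusters, all 36 lying 1003 to 29437 nt after its coding transcripts, with 32 in the 26596-nt intron 6. KLC4 (kinesin light chain 4) had 79, 70 and 153 reads in 27 clusters, all in the 15517-nt intron 2 of KLC4-209. They lay outside coding transcripts and 16165 to 27349 nt after the end of RRP36, a neighbouring gene, and not after the end of KLC4.

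RP11-156P1.2, ZNF687, ANO4 and APC had their clusters inside coding transcripts. RP11-156P1.2, as the files name it, had 214, 205 and 105 reads in 41 clusters, and all 41 lay in coding transcripts of GOSR2, a Golgi SNARE gene. ZNF687, a zinc finger gene, had 138, 260 and 97 reads. Its clusters had the highest GC content (64.7%) and conversion (16.2%) of the 10, and 21 of its 30 lay in the 3879-nt intron 1 of ZNF687-206. ANO4, of the anoctamin family, had 117, 85 and 111 reads, with 31 of 35 clusters in the 161540-nt intron 3 of ANO4-205. APC, a tumour suppressor of the β-catenin destruction complex, had 100, 114 and 83 reads, with 32 of 33 clusters in the 46990-nt intron 1 of APC-205. In ANO4 and APC clusters annotated as intron were also present, 19, 15 and 9 in ANO4 and 10, 14 and 20 in APC.

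In the retained-intron class SLC9A5 and BRD9 had the most reads on average. SLC9A5, a sodium-proton exchanger gene, had 17, 22 and 20 clusters with 344, 422 and 334 reads (10.1% ± 0.96 of the class). Of its 59 clusters, 58 lay in the 14085-nt intron 1 of SLC9A5-204, and 8 were inside a coding transcript. BRD9, a bromodomain subunit of a BAF chromatin remodelling complex, had 16, 16 and 22 clusters with 277, 350 and 380 reads (9.20% ± 1.2). All 54 lay in the 27752-nt intron 2 of BRD9-210, 41 of them inside coding transcripts of the neighbouring ZDHHC11 on the same strand and 13 after the end of BRD9. A stretch of 12 bases that recurs in another of its clusters at a different place was present in 33 of the 54 (61.1%), so the placement of reads among its repeats is uncertain. In the other 19 leading genes that share was at most 16.7%. The second BRD9 site present in all replicates (chr5:855786-856013, minus strand, hg38; 27, 59 and 31 reads) shows these repeats, and capitals mark the bases covered in all 3 replicates.
BRD9, retained intron: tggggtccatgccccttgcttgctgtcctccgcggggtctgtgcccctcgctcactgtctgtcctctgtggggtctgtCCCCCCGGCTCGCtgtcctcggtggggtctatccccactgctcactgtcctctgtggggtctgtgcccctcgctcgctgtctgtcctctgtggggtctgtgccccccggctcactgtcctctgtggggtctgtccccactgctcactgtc

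EXOG, a mitochondrial nuclease gene, had 91, 168 and 145 reads in 38 clusters, all 80 to 12870 nt after its coding end. NHSL1, by contrast, had all its clusters inside coding transcripts. It had 194, 196 and 204 reads in 60 clusters, all in the 120414-nt intron 1 of NHSL1-205, with nearly equal values over replicates.

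Non-coding genes made a further part of the class. RP11-66N24.4, which is ZFHX2-AS1 in GENCODE 44, had 177, 163 and 170 reads in 57 clusters. TPT1-AS1, antisense to the translationally controlled tumour protein gene, had 217, 65 and 128 reads, all 30 clusters lying in the 25512-nt intron 2 of TPT1-AS1-212. AC005154.6, named GARS1-DT in GENCODE 44, had 170, 81 and 103 reads in 33 clusters, 7 of them on an exon of the class. No cluster of these 3 genes lay in a coding transcript or was annotated as intron. The intron label went almost only to clusters inside coding transcripts, so its absence here is no result about binding.

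Among the 10 leading retained-intron genes UCK2, a uridine-cytidine kinase gene, was the only one with every cluster on an exon of the class. It had 102, 104 and 129 reads in 5, 6 and 6 clusters, and 63, 85 and 65 more clusters annotated as intron. All 17 retained-intron clusters of UCK2 were also inside a coding transcript. The next genes in rank, LINC01278 and GPATCH8, named here after their values were seen, also had all clusters on such exons. LINC01278 had 112, 107 and 89 reads in 24 clusters, and GPATCH8 66, 71 and 134 reads in 13 clusters. All 13 of GPATCH8 were also inside a coding transcript, and none of LINC01278 was.

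**Figure D4:**
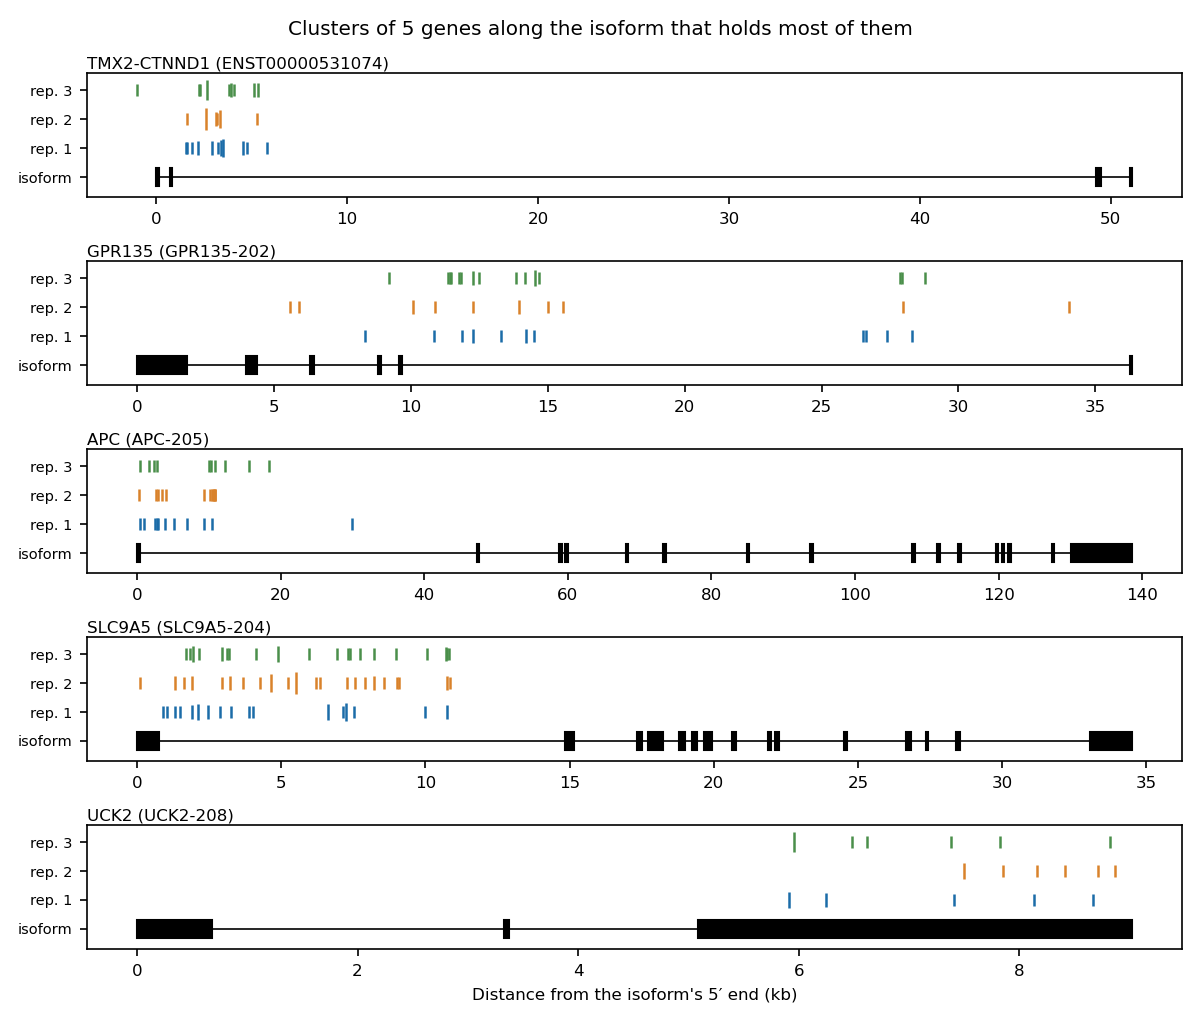
For 5 genes the isoform holding most of the gene's clusters is drawn to scale by distance from its 5′ end (kb), with exons as black boxes (the narrowest widened to be visible) and each cluster as a tick in its replicate's row, taller with more reads up to 100. Ticks gather in a long intron in TMX2-CTNND1, GPR135, APC and SLC9A5 and on the last exon in UCK2.

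Splicing and decay factors, whose own transcripts are known to carry decay or retained-intron isoforms, were few among these genes, at a share near that of all genes. The 4 lists held 82 genes, of which 81 had a cluster of some class. A decay or retained-intron cluster was present in any replicate in 3 of the 81 (3.70%, against 2.05% of all genes with a cluster), and in all 3 replicates in 1 of them (1.23%, against 0.804%). Among SR and SR-like splicing factors the count was 0 of 16 genes, and among kinases and other genes known for detained introns 0 of 21. Among hnRNP and PTB-type splicing regulators it was 2 of 29. HNRNPA2B1, which binds and packages nuclear pre-mRNA, had 4, 3 and 1 retained-intron clusters with 30, 41 and 11 reads, all 8 on an exon of the class. Of these 8, 7 were also inside a coding transcript. Replicate 3 was the lowest. TIAL1, a U-rich RNA-binding protein, had 1 decay cluster with 48 reads in replicate 3 and none in the others. Among nonsense-mediated decay and exon junction complex factors it was 1 of 15, RBM8A, a core exon junction subunit, with 2 retained-intron clusters in replicate 2 holding 11 reads.

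Single sites recurred less than genes did. Decay clusters merged into 976 sites, of which 8 had clusters of all 3 replicates, 88 of 2 and 880 of 1. Retained-intron clusters merged into 757 sites, with 13, 80 and 664. No cluster had the same coordinates as one in another replicate. The 21 sites of 3 replicates lay on an exon of the class in 2 cases, ANKAR (22, 8 and 15 reads) and RP11-363N22.3 (28, 45 and 5 reads). The other 19 include 4 in SLC9A5, 2 in BRD9 and 2 in EXOG. A cluster of any class in another replicate overlapped 21.0%, 19.7% and 17.5% of decay clusters and 21.1%, 25.5% and 25.2% of retained-intron clusters. Replicate 1 gave the same share in both classes. The difference of 4.51 ± 3.99 points (exact sign-flip test, n = 3, p = 0.25, adjusted p = 0.321) fell to 1.61 without replicate 2 and 1.63 without replicate 3, and to 0.74 when an overlap of 50% of both clusters was required. Leaving out a replicate also removes a library in which clusters could be found, so these runs do not isolate the weight of that replicate. Both classes together were 0.12 ± 1.37 points below intron clusters (21.5% ± 0.74), within the spread.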

How the data were processed

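PAR-CLIP clusters of 3 MATR3 libraries were analysed. Per the file headers, the authors deposited whole-number counts of reads, distinct reads, conversion locations and conversion events per cluster, unnormalised, and a fraction of reads with T-to-C. The build is hg38 per the submitters' processing notes, and all 1959 sequences equalled hg38. Aligner, cluster caller and annotation release are not given in the sources used here. Every deposited cluster had at least 4 reads, 2 conversion locations and 20 nt, and the median cluster of either class held 3 to 4 distinct reads per replicate. Library depth is unknown, reads carry no molecular identifiers, and limits on a count of 0 (3 counts) cover counting error only.

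Each class was summarised within a replicate (Python 3.11.15, pandas 2.3.3) and the test of differences was an exact two-sided sign-flip over replicates, 36 tests in all with Benjamini-Hochberg adjustment, 17 of them added after seeing the data. No count model was used. Placement used GENCODE 44 with an overlap of at least 1 nt on the same strand. Scripts were tested on simulated data. Named genes were, per class, the 10 with the largest geometric mean share of class reads among genes with the class in all 3 replicates, outside mitochondria, sites of all 3 replicates, and members of 4 gene lists with the class in all 3. Some items this rule names are not reported here. Other named genes were chosen after their values were seen. The members and lists were chosen with earlier results of these data known. Alternatives were stricter cluster sets, 1 value per gene, intron clusters of the member genes only, other overlaps and splice sites, medians, and leaving out each replicate. Added after seeing the data were leaving out the 5 genes with most clusters of each class and restricting to clusters inside, or on no exon of, an isoform of the class.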

Additional observations from a re-analysis of the deposited data

How the results depend on the processing

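No paired analysis was possible because all 3 libraries belong to 1 group, so replicate numbers pair no samples across groups. Class differences were taken within each replicate. Over 38 results and 444 alternative values, 411 kept their direction (counts: stayed within 1.5 times), 28 reversed and 5 counts moved, and 115 differences changed in size by over 1.5 times. The directions of GC content, T content, ATCTT and conversion between the classes and against introns held in every alternative run. The values that reversed were of differences within their spread, except GC content of exonic members (0.92 ± 0.62), and the cause was not tested. Median reads of both classes minus introns (0.33) became -0.33 at or above the median read count, -0.69 with 1 value per gene and -0.33 against intron clusters of the same genes. Median length, retained intron minus decay (0.17 nt), became -2.5 at the median read count, -1.83 with 3 distinct reads, -3 with 3 conversion locations and -1.07 per gene, and ranged from -0.25 to 0.50 without 1 replicate. Median length of both minus introns (0.33 nt) became -0.33, -2.42 per gene, -0.17 without the 5 leading genes and -0.67 in the same genes. The share found in another replicate, both minus introns (-0.12 points), became 0.56, 1.19, 2.19 and 0.26 at the median read count, 3 distinct reads, 3 locations and per gene, and ranged from -1.81 to 1.42 without 1 replicate. The T-to-C read share, retained intron minus decay (0.036), became -1.28 without the 5 leading genes and ranged from -0.65 to 0.73. Against introns (-0.70) it became 0.53 per gene and 0.28 in the same genes. Exonic minus other members in GC (0.92) became -0.13, -0.022 and -0.12 at the median read count, 3 distinct reads and 3 locations. In the share found (3.81) it became -0.64 at the median read count and ranged from -2.19 to 7.80. Decay genes present in all 3 replicates fell from 72 to 47 at the median read count, 38 with 3 locations and 45 with at least 2 clusters per gene. Retained-intron genes fell from 37 to 23 with 3 locations and 21 without clusters on class exons. Alternatives that restrict clusters, genes or replicates use fewer clusters. The others, such as 1 value per gene, medians or other overlaps, summarise the same clusters differently. Sites under the deposited minimum of 4 reads were not seen.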
